A study of Rattus norvegicus with 6 samples.

Results

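The genes of the major histocompatibility complex (MHC) and of antigen presentation were compared between Schwann cell precursors (SCPs) and repair Schwann cells (RSCs) of the rat. The set was made of the 39 gene symbols that begin with RT1-, the name of the rat MHC, and of 10 genes whose products work with MHC molecules (B2m, Tap1, Tap2, Tapbp, Cd74, Ciita, Nlrc5, Psmb8, Psmb9 and Psmb10). This gave 49 of the 29468 gene symbols in the files, 37 of class I (29 chains and 8 partner genes) and 12 of class II (10 chains and 2 partner genes). The SCPs came from the sciatic nerves and brachial plexus of wild-type Lewis rat embryos at embryonic day 14 and were untreated. The RSCs came from the part of the sciatic nerve distal to a cut, in wild-type Lewis rats of 10 weeks, 1 week after the cut. The study's methods name transgenic Lewis rats expressing RFP as the source of the grafted cells. They give no other source for the Schwann cells used for RNA. Each group had 3 samples, which are named SCP 1 to 3 and RSC 1 to 3. The cells were dissociated with enzymes and plated for a short time on uncoated plastic, which holds back adhesive cells such as fibroblasts and macrophages, and RNA was then sequenced in bulk. No source used here ties a sample to single animals, so the p-values measure the spread between these samples.

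MHC class I molecules carry peptides from inside the cell to its surface and show them to CD8+ T cells. A heavy chain pairs with β2-microglobulin, and the peptides are cut by the proteasome and pumped into the endoplasmic reticulum by the Tap1 and Tap2 transporter. MHC class II molecules are pairs of an α and a β chain that show peptides from endocytosed proteins to CD4+ T cells, and are best known from macrophages, dendritic cells and B cells. Schwann cells of injured or inflamed nerves are also known to carry class II molecules, and interferon gamma raises both classes in many cell types. In the rat, RT1-A is the classical class I region, RT1-CE, RT1-M, RT1-N, RT1-S and RT1-T are other class I genes, RT1-B and RT1-D are the class II molecules that correspond to human DQ and DR, and RT1-DM and RT1-DO act on peptide loading.

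Values are FPKM (fragments counted per kilobase of transcript and scaled to the mapped fragments of the library), summed over the named transcripts of a symbol. The 13003 symbols whose mean over both groups reached 1 FPKM were tested with limma on log2(FPKM + 1), and differences are given as RSC minus SCP on that scale, on which low genes appear to change less than they did. A gene was called higher in a group at an unadjusted p under 0.01, the study's threshold, and adjusted p-values were computed by the Benjamini-Hochberg method from all genes tested. The median difference over all tested genes was -0.17, and 0.020 after median-of-ratios scaling. The absolute depth is unknown because the tables hold no counts, and relative depth was 0.88 to 1.00 of the deepest sample in SCPs and 0.79 to 0.84 in RSCs. A listed 0 may be a failed estimate, since Erbb3, the neuregulin receptor of Schwann cells, was listed at 0 in SCP 1 and RSC 2 and at 31.6 to 111 FPKM in the other 4 samples. Such genes are therefore given by the value of each sample. Cufflinks, the program that made the estimates, gave some transcript values the status LOWDATA rather than OK. Among the called genes, values above 0 with this status occurred for Ciita, RT1-DOa, RT1-DOb, RT1-T24-1 and Tapbp.

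The labelled cell type was checked first. Sox10, the transcription factor that defines Schwann cells and their precursors, was at 179, 175 and 181 FPKM in SCPs and at 149, 143 and 143 in RSCs, a difference of -0.30 (adjusted p = 0.0077). S100b, a marker of later Schwann cells, was at 3.21, 11.7 and 19.3 FPKM in SCPs and at 924, 782 and 843 in RSCs. Of 14 macrophage markers, all 14 were called higher in RSCs, and their summed FPKM was 23.8, 49.3 and 61.8 in SCPs and 2871, 3511 and 3594 in RSCs. Ptprc (CD45), which is found on all leukocytes, was at 0.193, 0.758 and 0.609 FPKM in SCPs and at 10.8, 11.9 and 7.33 in RSCs. The B cell markers were near 0 in both groups, with Ms4a1 and Pax5 at 0 in all 6 samples and a summed FPKM of at most 0.942. Of 6 T and NK cell markers tested, 5 were higher in RSCs, and so were 5 of 6 fibroblast markers. Cd4, listed with the T and NK cell markers, was far above the others at 68.2, 119 and 99.6 FPKM in RSCs, and its cell source was not tested. Among dendritic cell markers 2 of 5 tested were higher in RSCs, with Itgax (CD11c) at 0.318, 0.186 and 0.335 FPKM in SCPs and at 21.6, 26.8 and 30.9 in RSCs, and Cd83 with a difference of 2.55. Cldn5 was the only one of 7 endothelial markers called. Red cell markers went the other way, with 4 of 5 tested higher in SCPs, and Hbe1, an embryonic globin, was at 16879, 13854 and 68201 FPKM in SCPs and listed at 0 in RSCs. Of 8 tested Schwann cell markers, 4 were higher in RSCs and 1, Sox10, in SCPs. In these bulk samples, more cells of a type and more RNA per cell cannot be told apart. The part of these other cells in the MHC values below was not tested.

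Nearly all MHC genes that could be tested were higher in RSCs. Of the 49 genes, 32 passed the filter, 28 of these were called higher in RSCs and 0 were called higher in SCPs. Over all 13003 genes tested, 18.1% were called higher in RSCs and 22.4% were higher in SCPs. The other 4 genes, RT1-CE5, RT1-M6-2, RT1-N2 and RT1-N3, had no call. A difference over 2 on the log2 scale, which is 4-fold, was found in 26 genes, against 7.81% of all genes tested. In 29 genes the 3 RSC values all lay above the 3 SCP values, as in 24.9% of all genes tested. The median difference of the 32 genes was 3.55, and 25 of them were at an adjusted p under 0.01. A gene with values near 0 in SCPs could pass only through its RSC values, so these counts hold for genes that passed the filter and not for the set as a whole. Of the 17 genes that did not pass, 6 (RT1-CE6, RT1-M1-4, RT1-M1-5, RT1-M5, RT1-O1 and RT1-T18) were at 0 in every sample and 11 were detected below the filter.

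**Figure D1:**
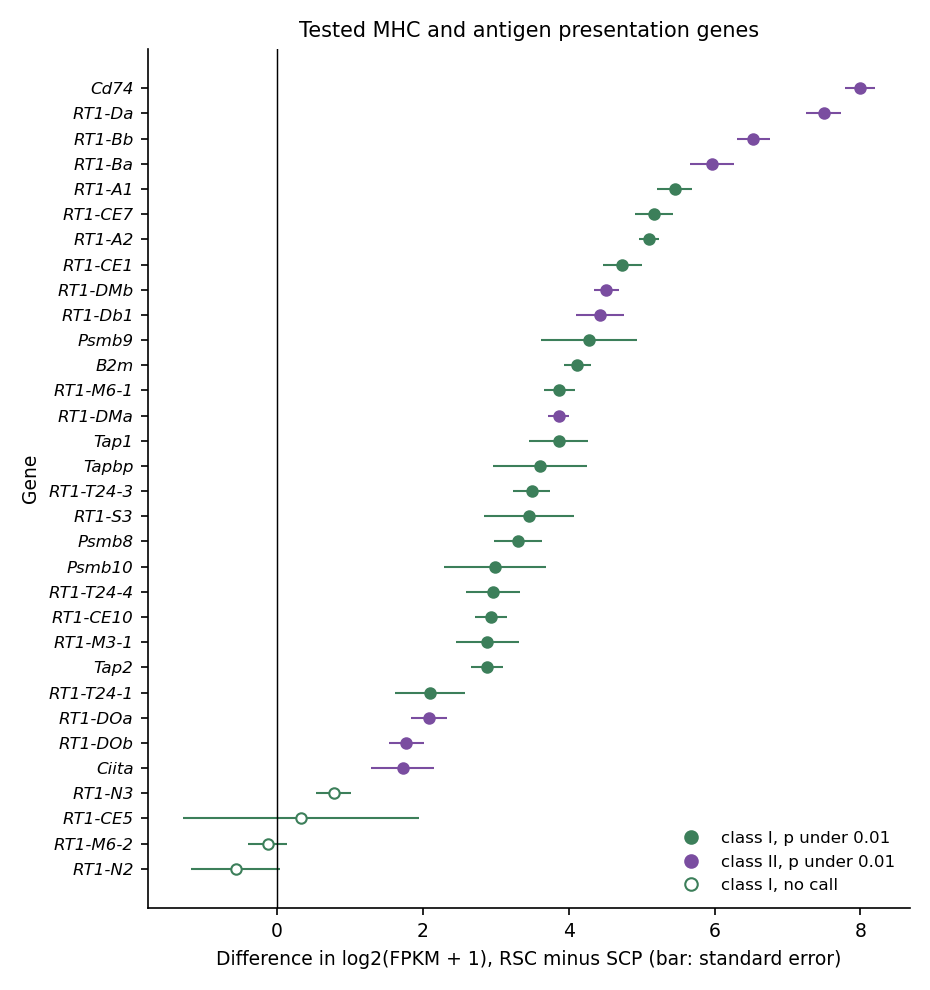
Difference in log2(FPKM + 1) between RSCs and SCPs (x axis, RSC minus SCP) for the 32 tested genes, with the standard error as a bar, filled points for genes at p under 0.01, green for class I and purple for class II. All 28 filled points lie to the right of 0, from Ciita at 1.72 to Cd74 at 7.99, and the 4 open points are class I chains.

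The 4 largest differences were those of class II genes. All 10 that were tested were higher in RSCs, 8 of them over 4-fold, with a median difference of 4.47. Over all genes tested, 18.1% were called higher in RSCs and 7.81% over 4-fold. All but RT1-DMa had an SCP mean under 1 FPKM and could pass the filter only through their RSC values. The summed FPKM of the class II chains was 1.85, 2.79 and 2.57 in SCPs and 630, 388 and 399 in RSCs. The group means were 2.40 ± 0.491 and 472 ± 137 (SD, n = 3 each), a ratio of 196.

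Cd74 is the invariant chain, which blocks the peptide groove of new class II molecules and guides them to endosomes. It lies on chromosome 18 from 56071420 to 56080851 of the rn6 genome. It was at 0.515, 0.640 and 0.905 FPKM in SCPs and at 561, 408 and 341 in RSCs. The lowest RSC sample thus stood far above the highest SCP sample, and the difference of 7.99 (standard error 0.21, adjusted p = 1.3e-05) was the largest of the 32 genes. By mean FPKM, Cd74 ranked 13108 among all symbols in SCPs and 177 in RSCs. The files list 2 transcripts of Cd74, of 1201 and 1448 bases. The longer transcript was at 0 in the SCP samples and held 23.1%, 25.2% and 29.6% of the Cd74 FPKM in RSC 1, 2 and 3.

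RT1-Da, the α chain of the DR-like molecule (chromosome 20 from 4127644 to 4132616), was the most abundant class II chain. It was listed at 0, 0.162 and 0 FPKM in SCPs and at 269, 156 and 162 in RSCs, a difference of 7.50 (standard error 0.24, adjusted p = 2.1e-05). In each RSC sample it made up between 40.3% and 42.7% of the summed class II FPKM. Its β chain partner RT1-Db1 (chromosome 20 from 4087621 to 4097190) was listed at 0 in all 3 SCP samples, against 30.8, 12.8 and 21.7 in RSCs (adjusted p = 0.00021). RT1-Da exceeded RT1-Db1 8.71, 12.2 and 7.44 times in RSC 1, 2 and 3. When unnamed transcripts at the RT1-Db1 position were added, the value of RSC 2 became 5.73. The reference genome is of the Brown Norway strain while the rats were Lewis, so ratios between chains here and below are less certain.

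The chains of the DQ-like molecule were closer to each other in level. RT1-Bb, the β chain (chromosome 20 from 4043726 to 4049367), was at 0.131, 0.122 and 0.138 FPKM in SCPs and at 146, 91.4 and 83.8 in RSCs, a difference of 6.53 (standard error 0.23, adjusted p = 2.5e-05). RT1-Ba, the α chain (chromosome 20 from 4066133 to 4070726), was listed at 0, 0 and 0.395 in SCPs and at 104, 53.7 and 58.4 in RSCs. The ratio of RT1-Ba to RT1-Bb was 0.716, 0.587 and 0.698 in the RSC samples, so the β chain was the higher of the pair in each. RSC 1 had the highest value of both chains.

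RT1-DMa and RT1-DMb form the molecule that exchanges the invariant chain fragment for a peptide, and RT1-DOa and RT1-DOb form its inhibitor. RT1-DMa (chromosome 20 from 5240975 to 5244378) was at 1.06, 1.44 and 1.12 FPKM in SCPs and at 31.5, 31.8 and 30.1 in RSCs, a difference of 3.87 (standard error 0.14, adjusted p = 2.6e-05). The 3 RSC values of RT1-DMa lay close together, at 31.1 ± 0.960 (SD, n = 3). RT1-DMb was at 0.472, 0.807 and 0.912 in SCPs and at 42.5, 36.5 and 36.4 in RSCs, a difference of 4.52. The inhibitor chains were far lower. RT1-DOa was listed at 0 in all 3 SCP samples, against 3.98, 2.39 and 3.55 in RSCs. RT1-DOb was listed at 0, 0.258 and 0 in SCPs and at 2.23, 2.76 and 3.15 in RSCs, a difference of 1.77. Both were called, and in both the groups did not overlap.

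Ciita, the coactivator that switches class II genes on, was itself low. It lies on chromosome 10 from 5213107 to 5260650 and was listed at 0, 0 and 0.0753 FPKM in SCPs and at 5.36, 1.61 and 1.32 in RSCs. The difference of 1.72 (standard error 0.43) had an adjusted p of 0.019, and the call was lost in 7 of 13 alternative settings. RSC 1 stood apart from the other RSC samples here, but 3.35 of its 5.36 FPKM came from a transcript with LOWDATA status. RT1-Ha was below the filter at 0.161, 0.149 and 0.316 in RSCs and 0 in SCPs. RT1-Db2 was at 0 in 4 of 6 samples and at most at 0.222.

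**Figure D2:**
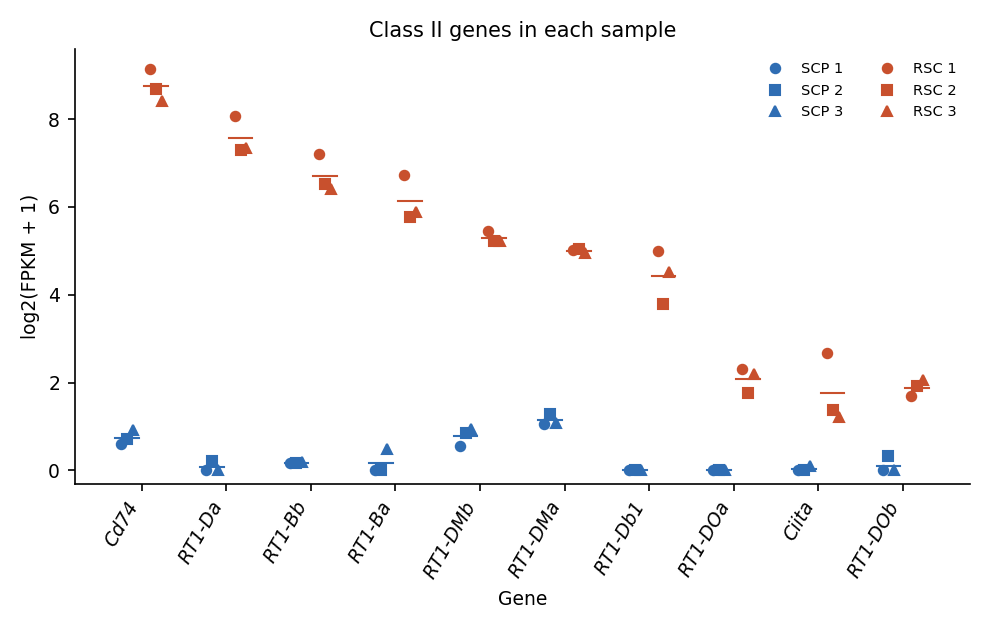
log2(FPKM + 1) of the 10 tested class II genes (x axis, ordered by mean FPKM in RSCs) in each SCP sample (blue) and each RSC sample (red), with a line at the group mean and the marker shape giving the sample number. The groups do not overlap in any of the 10 genes, and RSC 1 is the highest sample in 8 of them.

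The starts of these genes were examined for letters that class II regulators are known to bind. Promoters from 250 bases before to 50 bases after the transcription start were taken from RefSeq on the GRCr8 assembly, which is a later build than the rn6 positions above, and 42 of the 49 genes had an entry. Among the 28 called genes 25 had an entry, 17 of class I and 8 of class II. The Y box CCAAT, searched on both strands, was present in 8 of 8 class II promoters, 10 of 17 class I promoters and 37.5% of all 33469 promoters. An X1 box, searched as GCAACNGNT on both strands, was present in 3 of 8 class II promoters, 0 of 17 class I promoters and 2.47% of all promoters. The 3 genes were RT1-Da, RT1-Db1 and RT1-DOb, in which the X1 match began 82, 112 and 113 bases before the start. The nearest Y match downstream, on the opposite strand, began 33 bases after the first base of the X1 match in RT1-Da, 32 bases after it in RT1-Db1 and 30 bases after it in RT1-DOb. The same arrangement stood in the promoter of RT1-Db2, with the X1 match 148 bases before the start and the Y match 31 bases on, although this gene was near 0 in both groups and was not tested. Over all 42 genes with an entry, 5 held an X1 match, and the remaining gene was RT1-M1-2, which was also near 0. The promoters of the 3 called genes are shown with RT1-Bb, the most abundant β chain, in which no X1 match was found in this window. They lie at chr20:4515165-4515464, plus strand for RT1-Da, chr20:4560113-4560412, minus strand for RT1-Db1, chr20:4627474-4627773, minus strand for RT1-DOb and chr20:4604069-4604368, minus strand for RT1-Bb. Capitals mark X1 and Y matches, and the X1 and Y matches do not overlap each other.
RT1-Da: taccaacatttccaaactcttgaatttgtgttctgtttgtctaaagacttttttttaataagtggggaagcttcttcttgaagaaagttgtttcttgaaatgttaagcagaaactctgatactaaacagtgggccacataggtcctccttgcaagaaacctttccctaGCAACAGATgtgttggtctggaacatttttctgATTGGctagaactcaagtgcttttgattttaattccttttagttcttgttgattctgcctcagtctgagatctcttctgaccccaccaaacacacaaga
RT1-Db1: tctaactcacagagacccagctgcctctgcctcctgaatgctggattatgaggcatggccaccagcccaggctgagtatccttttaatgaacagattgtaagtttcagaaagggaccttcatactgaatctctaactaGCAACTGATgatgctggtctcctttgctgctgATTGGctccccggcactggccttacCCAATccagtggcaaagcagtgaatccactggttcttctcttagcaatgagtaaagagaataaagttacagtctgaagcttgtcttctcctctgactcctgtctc
RT1-DOb: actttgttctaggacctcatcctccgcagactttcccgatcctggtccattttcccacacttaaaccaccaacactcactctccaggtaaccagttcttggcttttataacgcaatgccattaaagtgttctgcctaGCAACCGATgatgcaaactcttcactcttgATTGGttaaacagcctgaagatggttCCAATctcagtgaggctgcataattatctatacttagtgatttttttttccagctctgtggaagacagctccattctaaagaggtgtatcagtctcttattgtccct
RT1-Bb: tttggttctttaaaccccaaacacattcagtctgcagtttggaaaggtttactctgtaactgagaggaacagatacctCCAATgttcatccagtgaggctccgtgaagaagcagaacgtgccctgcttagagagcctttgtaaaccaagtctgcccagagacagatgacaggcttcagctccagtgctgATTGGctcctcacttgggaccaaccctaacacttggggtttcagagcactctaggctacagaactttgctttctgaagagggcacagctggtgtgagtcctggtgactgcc
A match is a description of the letters, and binding was not measured, and the promoters printed were chosen after their matches were seen.

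Class I genes were higher in RSCs as well, and the summed class I chains stood higher in SCPs than the summed class II chains. Of 22 class I genes tested, 18 were higher in RSCs, all 18 over 4-fold, with a median difference of 3.38. Over all genes tested these shares were 18.1% and 7.81%. The calls took in 11 of 15 tested heavy chains and 7 of 7 tested partner genes. The summed FPKM of the heavy chains was 15.0, 16.1 and 18.5 in SCPs and 410, 291 and 372 in RSCs. The means were 16.5 ± 1.80 and 357 ± 60.9 (SD, n = 3 each), a ratio of 21.6, against 196 for the class II chains. The 16.5 includes the chains without a call, with SCP means of 3.366 (RT1-N3), 2.097 (RT1-CE5), 1.657 (RT1-M6-2) and 1.405 FPKM (RT1-N2). The ratio of 21.6 therefore does not stand for the called chains alone. Among called heavy chains with no sample at 0, single ratios of means ran from 7.56 for RT1-T24-1 to 111 for RT1-A2.

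B2m, the β2-microglobulin light chain shared by all class I molecules, was the most abundant of the 49 genes. It lies on chromosome 3 from 114087287 to 114093311, outside the MHC. It was at 31.0, 40.7 and 46.2 FPKM in SCPs and at 842, 606 and 645 in RSCs, a difference of 4.12 (standard error 0.19, adjusted p = 4.4e-05). By mean FPKM it ranked 1938 in SCPs and 109 in RSCs. The ratio of B2m to the summed heavy chains was 2.07, 2.53 and 2.50 in SCPs and 2.05, 2.09 and 1.74 in RSCs. These ratios overlapped between the groups, while the light chain and the summed heavy chains were each many times higher in RSCs.

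RT1-A1 and RT1-A2 are classical heavy chains, and RT1-A1 had the largest difference of the class I genes. RT1-A1 (chromosome 20 from 5414464 to 5418012) was at 0.422, 1.32 and 0.585 FPKM in SCPs and at 90.2, 71.6 and 65.5 in RSCs, a difference of 5.45 (standard error 0.24, adjusted p = 3.8e-05). RT1-A2 (chromosome 20 from 5375011 to 5378536) was at 0.495, 0.366 and 0.446 in SCPs and at 51.0, 44.6 and 49.6 in RSCs, a difference of 5.10 (standard error 0.14, adjusted p = 1.4e-05). Together with RT1-CE7 and RT1-CE1 they held most of the class I signal, with shares in RSCs of 17.6% to 24.6% for RT1-A1, 15.3% to 23.1% for RT1-CE7, 12.4% to 15.3% for RT1-A2 and 9.72% to 10.4% for RT1-CE1.

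The RT1-CE genes are class I genes of the second class I region. RT1-CE7 was at 0.761, 1.58 and 0.701 FPKM in SCPs and at 94.7, 63.8 and 57.1 in RSCs, a difference of 5.17. RT1-CE1 was listed at 0, 0.696 and 0.598 in SCPs and at 42.8, 30.2 and 36.2 in RSCs, a difference of 4.73. RT1-CE10 had a difference of 2.94 at 6.35 to 9.08 FPKM in RSCs. RT1-CE5 differed from the other RT1-CE genes in that its RSC samples did not agree. It was at 2.40, 1.81 and 2.08 in SCPs, listed at 0 in RSC 1 and RSC 2, and at 57.6 in RSC 3, a difference of 0.33 (standard error 1.62) with an adjusted p of 0.89. Without RSC 3 the difference turned to -1.63, and with unnamed transcripts at its position RSC 2 reached 58.2. RT1-CE3 and RT1-CE4 were below the filter, at most 0.494 in SCPs and 0 in RSCs. Near-identical chains can share reads, and the reference genome is of the Brown Norway strain while the rats were Lewis, which carry another RT1 haplotype, so the split between chains is less certain than their sum.

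Among the remaining heavy chains, 6 were called. RT1-M3-1, the M3 molecule known for binding formylated peptides, was listed at 1.29, 0 and 0.681 FPKM in SCPs and at 6.52, 11.2 and 15.8 in RSCs, a difference of 2.88. RT1-M6-1 was at 0.205, 0.490 and 0.188 in SCPs and at 21.9, 15.4 and 16.8 in RSCs, a difference of 3.87. RT1-S3 was at 0.277, 0.663 and 3.31 in SCPs and at 37.7, 11.0 and 24.9 in RSCs, a difference of 3.45. RT1-T24-3 and RT1-T24-4 had differences of 3.49 and 2.96. RT1-T24-1 was at 0.392, 0.650 and 2.12 in SCPs and at 7.78, 3.85 and 12.3 in RSCs, and its call was lost in 6 of 15 alternative settings. In RSC 3, 9.40 of the 12.3 FPKM came from a transcript with LOWDATA status. RT1-N3 was at 4.34, 3.14 and 2.62 in SCPs and at 8.18, 5.63 and 5.66 in RSCs, and its difference of 0.78 had an adjusted p of 0.039. Its SCP values had LOWDATA status. With unnamed transcripts they were 5.26, 6.08 and 5.55, and the groups overlapped. RT1-M6-2 and RT1-N2 had differences of -0.13 and -0.57 with overlapping groups. RT1-M1-2, RT1-M10-1, RT1-M2, RT1-M4, RT1-S2 and RT1-T24-2 stayed below the filter, at no more than 0.456 FPKM in any sample.

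**Figure D3:**
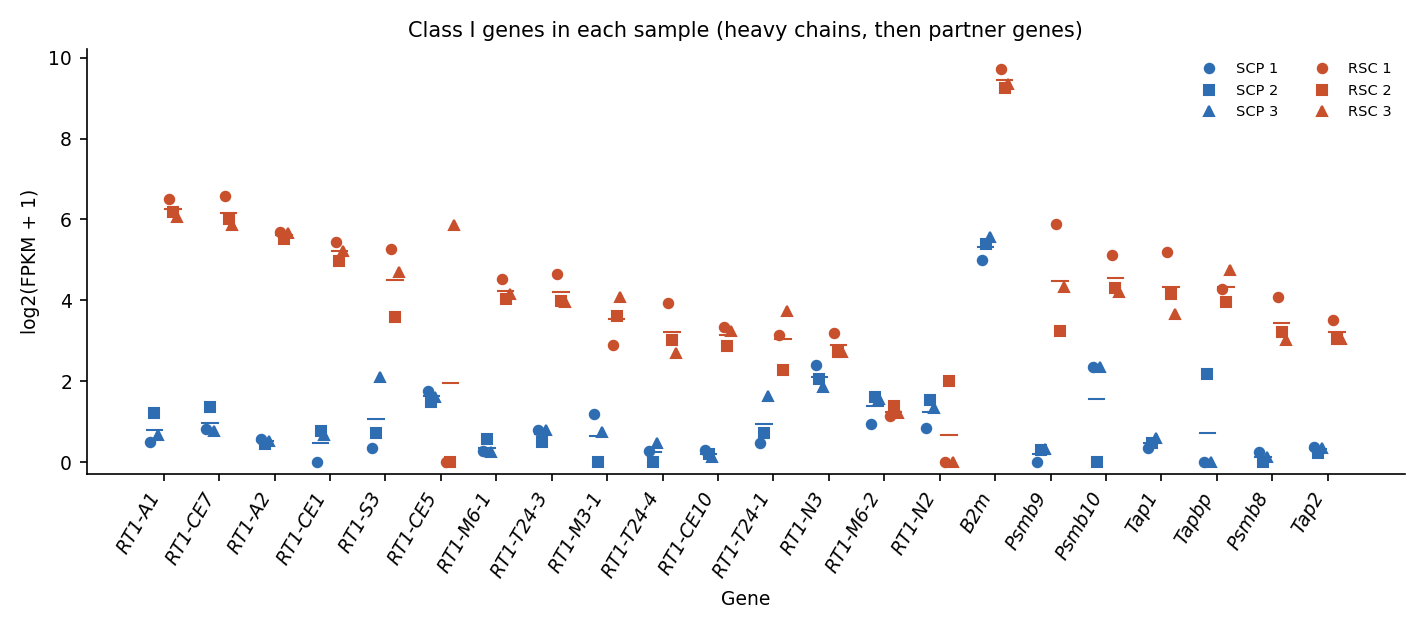
log2(FPKM + 1) of the 22 tested class I genes (x axis, 15 heavy chains and then 7 partner genes, each ordered by mean FPKM in RSCs) in each SCP sample (blue) and each RSC sample (red), with a line at the group mean. By named transcripts the groups lie apart in 19 of the 22 genes, and RT1-CE5 is at 0 in 2 RSC samples and at 57.6 FPKM in the third.

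The 7 tested partner genes of class I were all higher in RSCs. Tap1 and Tap2 are the subunits of the peptide transporter. Tap1 (chromosome 20 from 3979302 to 3989669) was at 0.277, 0.389 and 0.512 FPKM in SCPs and at 35.5, 16.8 and 11.8 in RSCs, a difference of 3.86 (standard error 0.40, adjusted p = 0.00070). Tap2 (chromosome 20 from 3995544 to 4009587) was at 0.309, 0.180 and 0.285 in SCPs and at 10.5, 7.31 and 7.27 in RSCs, a difference of 2.88. Tap1 exceeded Tap2 3.39, 2.29 and 1.62 times in RSC 1, 2 and 3. Tapbp, tapasin, which holds empty class I molecules at the transporter, was listed at 0, 3.53 and 0 in SCPs and at 18.4, 14.7 and 26.0 in RSCs, a difference of 3.61. With unnamed transcripts at its position the SCP samples were no longer at 0, and the difference was 2.96. The named Tapbp transcript had LOWDATA status in every sample but SCP 2. Nlrc5, the coactivator of class I genes, was below the filter at 0.998, 0.447 and 0.325 in RSCs and listed at 0 in every SCP sample.

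Psmb8, Psmb9 and Psmb10 are the inducible catalytic subunits that replace Psmb5, Psmb6 and Psmb7 in the immunoproteasome. Psmb8 was at 0.194, 0 and 0.102 FPKM in SCPs and at 16.1, 8.28 and 7.06 in RSCs. Psmb9 was at 0, 0.224 and 0.254 in SCPs and at 58.4, 8.44 and 19.0 in RSCs. Psmb10 was at 4.09, 0 and 4.09 in SCPs and at 34.1, 18.8 and 17.4 in RSCs. The limma differences were 3.31, 4.28 and 2.98, and the call of Psmb10 was lost in 6 of 16 alternative settings. The constitutive partners were lower in RSCs. Their differences were -0.63 for Psmb5, -0.46 for Psmb6 and -0.63 for Psmb7, and that of Psmb6 fell to -0.25 without a call after median-of-ratios scaling.

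The share of an inducible subunit in the total of its pair does not depend on how samples are scaled. Psmb9 made up 0%, 0.166% and 0.157% of the Psmb9 and Psmb6 total in SCPs and 32.9%, 7.76% and 14.8% in RSCs. The 7.76% of RSC 2 rests on named transcripts, at 8.44 FPKM of Psmb9. With unnamed transcripts at its position Psmb9 was at 20.5 FPKM in RSC 2 and 19.0 in RSC 3. Psmb8 made up at most 0.199% of its pair in SCPs and 21.0%, 10.8% and 10.5% in RSCs. Psmb10 made up 2.35%, 0% and 2.83% in SCPs and 27.4%, 15.8% and 14.3% in RSCs. On the log2 scale, with 1 added to each FPKM, the ratios were 3.94, 4.74 and 3.62 higher in RSCs for Psmb8, Psmb9 and Psmb10. These ratios, unlike the shares, depend on the added value since the inducible subunits were low in SCPs, and with 0.1 added in its place the differences were 6.41, 7.02 and 4.86. All 3 RSC values lay above all 3 SCP values in each pair, and the exact two-sided permutation test gave p = 0.10 for each, which is the smallest that 3 against 3 samples allow, and 0.10 after adjustment over the 3 ratios.

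**Figure D4:**
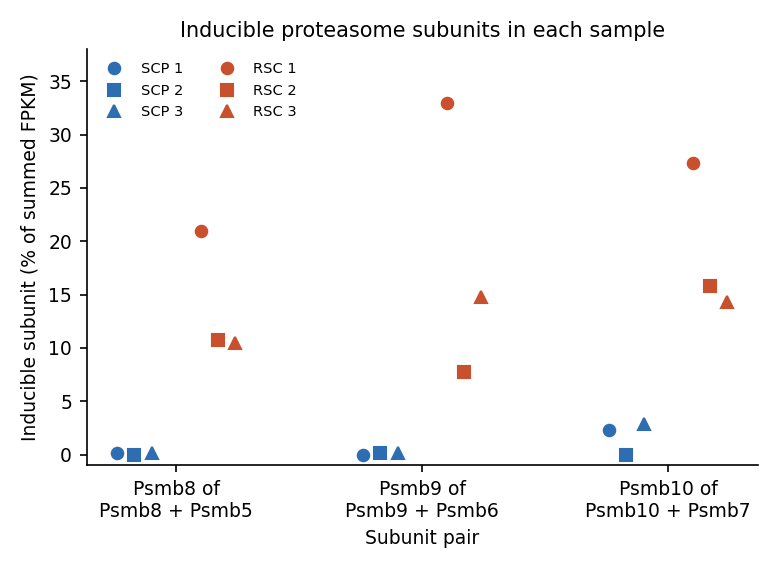
Inducible subunit as a percentage of the summed FPKM of the inducible and constitutive subunit (y axis) for 3 pairs (x axis) in each SCP sample (blue) and RSC sample (red). By named transcripts, SCP samples lie at 2.83% or less, RSC samples at 7.76% or more, and RSC 1 is the highest in each pair.

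The same promoters were searched for motifs of class I regulators, and differences between the classes were not tested. An interferon-stimulated response element, searched as GAAANNGAA on both strands, was present in 7 of 17 called class I promoters, 0 of 8 called class II promoters and 9.71% of all promoters. The 7 genes were B2m, Tap1, Tap2, Tapbp, Psmb8, Psmb10 and RT1-S3, so 6 of them are partner genes. Over all 42 genes with an entry 9 held this element, including RT1-N3 and RT1-S2, which had no call. The enhancer A motif GGGATTCC was present in 3 of 17 class I promoters (RT1-A1, RT1-A2 and RT1-CE10), 0 of 8 class II promoters and 1.23% of all promoters. It was also present in RT1-CE3, RT1-CE4 and RT1-M5, which were not tested and were listed at 0 in every RSC sample, so that 6 of the 42 genes held it. A gamma-activated site, searched as TTCNNNGAA, was present in 2 of 17 class I promoters (RT1-M3-1 and Psmb8), 0 of 8 class II promoters and 8.87% of all promoters. The promoters of B2m, Tap1 and Psmb10, the last with 3 matches to the interferon element, are shown with that of RT1-A1, the most abundant heavy chain. On GRCr8 they lie at chr3:129549080-129549379, plus strand for B2m, chr20:4668494-4668793, minus strand for Tap1, chr19:50743243-50743542, minus strand for Psmb10 and chr20:4906959-4907258, plus strand for RT1-A1. Capitals mark matches to the interferon element, enhancer A and CCAAT, and in Psmb10 the first 2 interferon matches overlap.
B2m: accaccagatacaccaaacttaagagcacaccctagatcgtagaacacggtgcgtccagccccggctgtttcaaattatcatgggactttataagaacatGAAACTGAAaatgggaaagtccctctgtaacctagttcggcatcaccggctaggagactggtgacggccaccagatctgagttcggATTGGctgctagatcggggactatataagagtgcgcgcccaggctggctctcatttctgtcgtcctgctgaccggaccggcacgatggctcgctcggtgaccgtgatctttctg
Tap1: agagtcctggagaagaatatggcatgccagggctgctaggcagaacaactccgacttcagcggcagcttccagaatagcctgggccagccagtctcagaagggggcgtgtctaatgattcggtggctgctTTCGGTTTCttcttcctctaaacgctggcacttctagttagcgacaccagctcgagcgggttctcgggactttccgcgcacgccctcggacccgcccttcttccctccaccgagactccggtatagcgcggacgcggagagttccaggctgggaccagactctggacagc
Psmb10: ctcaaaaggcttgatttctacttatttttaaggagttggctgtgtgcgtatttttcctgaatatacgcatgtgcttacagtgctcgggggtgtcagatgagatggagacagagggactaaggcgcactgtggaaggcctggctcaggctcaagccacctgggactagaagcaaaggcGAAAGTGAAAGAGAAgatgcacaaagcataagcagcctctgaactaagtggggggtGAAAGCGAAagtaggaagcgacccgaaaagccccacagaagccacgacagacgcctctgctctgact
RT1-A1: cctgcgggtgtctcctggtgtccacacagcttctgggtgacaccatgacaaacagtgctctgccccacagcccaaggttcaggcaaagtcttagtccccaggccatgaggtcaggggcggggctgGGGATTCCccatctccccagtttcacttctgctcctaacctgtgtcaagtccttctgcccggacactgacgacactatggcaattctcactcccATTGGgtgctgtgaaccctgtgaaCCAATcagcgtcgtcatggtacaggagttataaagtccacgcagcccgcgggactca

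RSC 1 had the highest value among the RSC samples in 23 of the 28 genes called higher in RSCs, and this order was not seen over all genes. The genes with another order were RT1-DMa, RT1-DOb, RT1-M3-1, RT1-T24-1 and Tapbp. RSC 1 was the highest in 82.1% of the 28 genes and in 35.3% of the 2351 genes called higher in RSCs over the whole table. The median ratio of RSC 1 to the mean of the RSC samples was 1.27 for the 28 genes and 0.995 for the 2351 genes. When unnamed transcripts were added, RSC 1 was the highest in 24 of 28. The macrophage markers did not follow this order, since RSC 1 was the highest in 1 of 14 and RSC 2 in 8 of 14. Among the 5 called T and NK cell markers RSC 1 was the highest in 3, namely Cd3d at 6.21, 2.06 and 3.05 FPKM, Cd3g at 3.74, 0.916 and 2.12, and Cd2 at 5.99, 1.83 and 1.94. The remaining ones had another order, with Cd8a at 5.90, 5.36 and 7.98 in RSC 1, 2 and 3 and Cd4 at 68.2, 119 and 99.6. Cd4 stood far above the other called T and NK cell markers and was highest in RSC 2, as were 8 of 14 macrophage markers. Which cells carried Cd4 was not tested. Ifng, the interferon gamma gene, was below the filter at 2.65, 0.621 and 1.98 in RSC 1, 2 and 3 and 0 in SCPs. Whether T or NK cells have a part in the order was not tested. Without RSC 1, 25 members were called higher in RSCs.

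**Figure D5:**
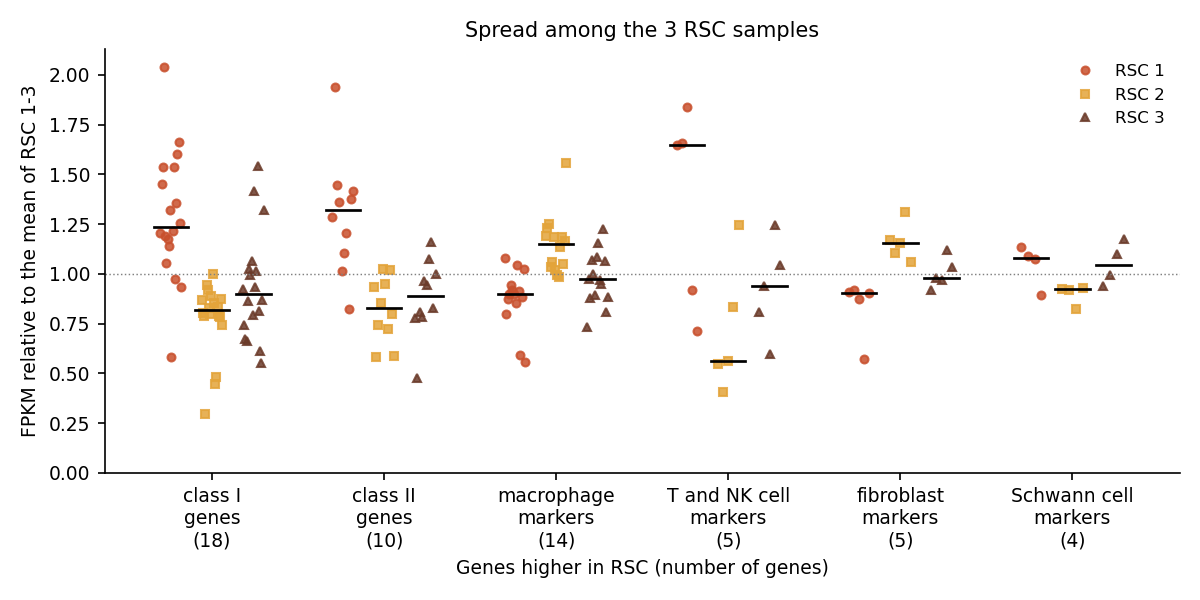
FPKM of each RSC sample relative to the mean of the 3 RSC samples (y axis) for the called class I and class II genes and for marker genes called higher in RSCs (x axis, with the number of genes), with a line at each median. The MHC genes lie above 1 in RSC 1 for most genes, while the macrophage and fibroblast markers lie mostly below 1 there.

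Other genes of the class I and class II paths were less uniform than the MHC genes themselves. In 6 lists of such and related genes, 27 of 47 tested genes were higher in RSCs, against 18.1% of all genes tested in that direction and 22.4% in the other. The lists include the 3 constitutive proteasome subunits above, which were all called higher in SCPs. The counts of the other lists in both directions follow. Among 10 genes that regulate or assist class I loading, 6 were higher in RSCs and 1 in SCPs. Tapbpl, a relative of tapasin, was listed at 0.530, 2.51 and 0 FPKM in SCPs and at 30.2, 27.6 and 25.7 in RSCs, a difference of 4.04. Erap1, the aminopeptidase that trims class I peptides, had a difference of 2.41 and was at no more than 7.38 in SCPs and at no less than 30.4 in RSCs. Psme1 and Psme2, the subunits of the PA28 proteasome activator, had differences of 1.31 and 0.77, while Psme3, the nuclear PA28 subunit, was lower in RSCs with a difference of -0.89. Canx and Sec61a1 were called with small differences of 0.32 and 0.42. Calr, Pdia3 and Lnpep had no call.

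Of 13 tested genes of class II processing and regulation, 5 were higher in RSCs and 2 in SCPs. Lgmn, the asparagine endopeptidase of endosomes, was listed at 0 in all 3 SCP samples, against 87.7, 59.1 and 138 FPKM in RSCs. The cathepsins Ctsb, Ctsd and Ctsl had differences of 3.54, 3.31 and 1.86, and Ifi30, which reduces disulfide bonds of antigens, 2.53. Ctss, the cathepsin that removes the invariant chain, was listed at 1.07, 0 and 0 in SCPs and at 0, 30.5 and 187 in RSCs, without a call, and was called when unnamed transcripts were added. Rfx5, the subunit through which the RFX complex binds the X box, was at 15.0, 12.6 and 7.59 in SCPs and at no more than 4.08 in RSCs, a difference of -1.73 (adjusted p = 0.0065). Nfyb, a subunit of the factor that binds the Y box, had a difference of -0.82. Rfxap, Rfxank, Nfya, Nfyc and Creb1 had no call.

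The interferon gamma pathway had 9 of 10 tested genes higher in RSCs, and 0 were higher in SCPs. The receptor chains Ifngr1 and Ifngr2 had differences of 2.45 and 1.94, and the kinases Jak1 and Jak2 0.59 and 2.41. Irf1, a transcription factor induced by interferon gamma, was at 7.76, 12.0 and 23.1 FPKM in SCPs and at 74.2, 43.2 and 36.6 in RSCs, a difference of 1.83 (adjusted p = 0.016), with RSC 1 the highest RSC sample. Irf8, a factor of myeloid cells, had a difference of 3.12, and Irf2 and Irf9 1.54 and 1.91. Stat2 had no call at 0.77, and Socs1 was not tested.

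Among class I-like genes outside the MHC, 3 of 6 tested were higher in RSCs and 1 in SCPs. Fcgrt, the Fc receptor that recycles antibodies and pairs with B2m, was at 5.36, 12.8 and 9.60 FPKM in SCPs and at 178, 236 and 247 in RSCs, a difference of 4.49. Procr and Cd1d1 had differences of 2.66 and 1.16. Raet1l, a ligand of an NK cell receptor, was at 5.11, 6.55 and 1.85 in SCPs and at 0 in every RSC sample. Of 5 tested costimulators and checkpoint ligands, 4 were higher in RSCs and 0 in SCPs. Cd274 (PD-L1), which inhibits T cells, had a difference of 3.29 and was at 15.0, 11.6 and 10.6 in RSCs. Cd40, Cd276 and Tnfsf9 had differences of 1.28, 1.28 and 1.80. The costimulators Cd80 and Cd86 were low. Cd86 was at 5.49, 1.86 and 11.1 in RSCs with no call, and Cd80 was below the filter.

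The 39 RT1- genes lie on chromosome 20, between 154072 and 5418012 of rn6, among 238 other genes. Of these neighbours 98 were tested, and 39 (39.8%) were higher in RSCs, while 12 (12.2%) were higher in SCPs, against 18.1% and 22.4% of all genes. Their median difference was 0.73, below the 3.55 of the tested MHC and antigen presentation genes. The neighbours higher in RSCs included the complement genes C2, C4a and C4b, with differences of 5.29, 4.10 and 3.94, and the heat shock genes Hspa1a and Hspa1b, with 3.48 and 3.46. They also included Aif1, a macrophage marker, at 5.09. Among those lower in RSCs were Nrm, at 19.0, 18.9 and 10.1 FPKM in SCPs and 0 in every RSC sample, and Egfl8, with a difference of -2.46. Of 16 tested neighbours that carry only a number for a name, 10 were higher in RSCs. What these numbered genes encode was not examined, so they may include MHC genes that have no RT1- name. Without them, 29 of 82 neighbours (35.4%) were higher in RSCs and 12 (14.6%) in SCPs, with a median difference of 0.65. LOC100909593 and LOC100909630 held values within 1.89% and 4.35% of RT1-DMa and RT1-DMb in every RSC sample. Less close were LOC103689996, at 9.35, 6.76 and 6.29 FPKM in RSC 1, 2 and 3, to Tap2 at 10.5, 7.31 and 7.27. LOC103690099 was at 12.8, 6.30 and 6.52, below Psmb8 at 16.1, 8.28 and 7.06. Whether any of these pairs share reads was not tested, so the ratios of Tap1 to Tap2 and the shares of Psmb8 are less certain. LOC103694382, with a transcript of 293 bases, was at 630, 439 and 465 FPKM in RSCs. The genes named in this paragraph were chosen after their values were seen.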

How the data were processed

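RNA of 3 SCP and 3 RSC samples was sequenced by the authors as paired-end stranded mRNA libraries. Reads were aligned by the authors to the rat assembly rn6, and the submitters' processing notes name FastQC 0.11.2, TopHat2 2.1.0 and Cufflinks 2.2.1. The deposited tables hold 1 row per transcript with FPKM, which Cufflinks scales for transcript length and mapped fragments, and the read coverage, a signal from which relative depth was taken. They hold no counts, so no count test and no interval for counting error could be given, and precision rests on 3 samples per group.

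Of each table, 61743 named transcripts were used and 77 whose gene names had become dates were left out. FPKM was summed by gene symbol. Transcripts that Cufflinks assembled without a name, which held 18.6% to 31.9% of the FPKM, were used only in an alternative. The 13003 symbols with a mean of at least 1 FPKM were fitted with limma 3.58.1 (R 4.3.3) on log2(FPKM + 1) with a trend of variance and without a block, with a call at an unadjusted two-sided p under 0.01. In simulated data with 200 of 13003 genes changed, 90.5% were found, all with the right sign. Each changed gene was given the same large difference and no estimate was made to fail. The 90.5% therefore does not cover smaller differences or genes near 0. The immunoproteasome ratios were compared with an exact permutation test (scipy 1.17.1), and tables were handled with pandas 2.3.3. The members and gene lists were chosen with earlier results of these data known, and no test of a list was made. All members could be named, the members of the lists were named first by their 2 largest changes in each direction, and Ulbp1, Icosl and Vsir had no row in the tables under these names. Some genes of the lists are not reported here by name. Promoters came from RefSeq (GRCr8). Results were recomputed with quantile or median-of-ratios scaling, a pseudocount of 0.1, no filter or a filter of 5 FPKM, adjusted p, no trend, a block for the replicate number, 1 transcript (the highest) per gene, unnamed transcripts added to the gene at their position, and each sample omitted in turn.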

Additional observations from a re-analysis of the deposited data

Results flagged for a closer look

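Some reads at the MHC genes were assembled by Cufflinks into transcripts without a name, which the comparisons above do not count. At 8 genes such transcripts stood above 10 FPKM in an RSC sample and above every SCP sample. At RT1-CE1 they reached 75.7 FPKM in RSC 1, and at RT1-CE5 58.2 FPKM in RSC 2, a sample in which the named RT1-CE5 transcript was listed at 0. At RT1-Bb they reached 22.2 FPKM in RSC 1 and at RT1-M3-1 13.4 FPKM in RSC 1. In RSC 2 they reached 18.3 FPKM at RT1-S3, 14.4 FPKM at RT1-Db1 and 12.1 FPKM at Psmb9, 3 genes for which RSC 2 was the lowest RSC sample by named transcripts. At Tapbp they reached 17.1 FPKM in RSC 1 and 10.0 FPKM in RSC 2. At these positions the SCP samples had none, except RT1-M3-1 with 1.77 FPKM in SCP 2 and Tapbp with 3.49 in SCP 1 and 2.52 in SCP 3.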

How the results depend on the processing

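Of the 439 values that the 28 called genes had under the alternatives, 420 kept their direction and call, 19 lost the call and 0 turned direction, and the lost calls were those of Ciita, Psmb10 and RT1-T24-1. The number of genes called higher in RSCs was 27 with a pseudocount of 0.1, 27 with no filter, 21 with a filter of 5 FPKM (of fewer genes tested), 29 after median-of-ratios scaling, and 25 to 27 with 1 sample left out. The number higher in SCPs, 0 above at an unadjusted p under 0.01, was 2 with no filter (RT1-M10-1 and RT1-T24-2, both below 0.301 FPKM) and 0 to 1 with 1 sample left out, where the 1 was RT1-CE5 without RSC 3. The mean summed class I FPKM of SCPs was 19.99 with unnamed transcripts, against 16.5. Over all genes, 44.6% of the calls were higher in RSCs, and 56.1% after median-of-ratios scaling. The direction turned for RT1-CE5 (-1.39 with a pseudocount of 0.1, and -1.63 without RSC 3 to 1.31 without RSC 1), RT1-M6-2 (0.27) and RT1-N2 (0.48) with unnamed transcripts, Lnpep (0.18 after median-of-ratios scaling, and -0.049 to 0.068 with 1 sample left out), Rfxap (0.065 after median-of-ratios scaling) and Mr1 (-0.016 with a pseudocount of 0.1), none of them called above, and the cause was not tested.

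The correlation of deviations from the group means was 0.044, -0.0049 and 0.026 for same-numbered samples and -0.048 to 0.022 for other pairs. With 3 samples per group, these values cannot show whether the replicate numbers pair the samples. With the number as a block, 27 genes were higher in RSCs (18 of class I and 9 of class II), 0 in SCPs, 21 other pathway genes and 36 neighbours were higher in RSCs, the calls of Ciita, Canx, Psme2, Sec61a1, Irf1, Irf9, Cd40 and Tnfsf9 were lost, and Cd86 gained one. The immunoproteasome ratios within pairs kept their values of 3.94, 4.74 and 3.62, with an exact sign-flip permutation p of 0.25, the smallest possible. Absolute depth, which the tables do not give, limits statements on genes near 0.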
